A study of Rattus norvegicus with 10 samples.

Results

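The 1-month dose series of calorie restriction (CR) in rat muscle comprised 5 of the 10 arrays of the study, those of the control, 5%, 10%, 20% and 30% CR groups fed for 1 month. The arrays were taken by their labels, although this part was chosen with earlier results of these data known. Over these 5 arrays log2 signal was regressed on percent restriction for each probe set, and the genes with the largest slopes were described by the shape of their curve. Male Wistar rats were bought at 5 weeks of age and started the regimen at 6 weeks on powdered AIN-93G diet. The groups received 100, 95, 90, 80 or 70% of their recorded intake, so by design the control differed from the others in the amount of food. The gastrocnemius, the large and mainly fast muscle of the calf, was taken after a 16 h fast. Each array carried RNA pooled from the 5 rats of 1 group, so no group had a replicate array and animal-to-animal spread was averaged away before measurement. The other 5 arrays of the study held the same levels after 1 week, with a control of their own.

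Under restricted feeding, muscle is known to turn from glucose to fat as fuel. Glucocorticoids and the FOXO factors drive genes of protein breakdown, and PPAR factors drive genes of fat use. The muscle clock is a loop in which BMAL1 and CLOCK activate the PER, CRY and REV-ERB repressors, and it is set in part by the time of feeding. Resident macrophages, fibroblasts and vessel cells lie between the fibres, and their transcripts are part of any whole-muscle RNA.

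The fit covered 15521 probe sets, which stood for 9170 genes, and the dimmest of them had a mean signal of 17.84. A slope is given in log2 signal per 10 percentage points of restriction, as the estimate ± SE from limma. With 1 array per level, the SE came from the departure of the 5 values from a straight line (3 residual degrees of freedom) and from the spread shared across probe sets. A curve that bends therefore has a large SE even if it was measured well, and the median SE was 0.0723. The trimmed mean signal was 86.44 on each 1-month array. The ratio of 3' to 5' signal, a sign of RNA integrity, was 1.02 to 1.08 for GAPDH and 1.369 to 1.605 for actin. Hybridization spikes on the restricted arrays were 0.537 to 0.718 of the 1-month control, and the brightest 310 probe sets had median log2 ratios of −0.31, −0.18, −0.15 and −0.11 at 5%, 10%, 20% and 30% CR. The 1-month control array thus stood apart from the 4 restricted arrays in its brightest signals, and for some lists the median slope without it is given below. Other lists moved as well. Without the control the clock list of PER, CRY, DEC and D-box genes went from 0.03 to −0.13. The BMAL1 clock list went from −0.10 to 0.17, and the actin, tropomyosin and tubulin list from −0.03 to 0.08. The 15 skeletal muscle markers were all tested, with summed signals of 84040 to 121900, and none had an unadjusted p under 0.05. Their median slope was −0.01 with 3 of 15 positive, and 0.10 with 13 of 15 positive without the control array, where 54.1% of all genes were positive (52.4% with it).

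The clearest relation to the level of restriction was seen for 4 named genes. The glycolytic regulator Pfkfb3 and the clock repressor Nr1d1 fell, and the transcription factor Cebpb and the hyaluronan receptor Lyve1 rose. In all, 3 of 15521 probe sets rose (0.0193%) and 3 fell (0.0193%) at an adjusted p under 0.05, and 1384 had an unadjusted p under 0.05. All 6 were classed as graded by the rule for curve shape given below, which the choice of steep slopes favours.

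Both falling genes hold an E-box, the hexamer CACGTG that BMAL1 and CLOCK are known to bind, in their promoter as given by RefSeq on GRCr8. The promoters of Nr1d1 (chr10:84229405-84229704, minus strand) and Pfkfb3 (chr17:71944683-71944982, plus strand) are shown because they share this hexamer, which is in capitals and lies 191 and 42 bases before the start of transcription. Each stretch of 300 bases covers the bases just upstream of the start and the first transcribed bases.
Nr1d1: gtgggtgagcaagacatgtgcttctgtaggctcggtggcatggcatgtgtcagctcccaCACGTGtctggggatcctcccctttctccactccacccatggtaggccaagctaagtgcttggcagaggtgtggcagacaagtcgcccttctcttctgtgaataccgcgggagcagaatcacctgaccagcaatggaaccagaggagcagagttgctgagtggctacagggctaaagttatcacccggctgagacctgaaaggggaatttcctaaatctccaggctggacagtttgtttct
Pfkfb3: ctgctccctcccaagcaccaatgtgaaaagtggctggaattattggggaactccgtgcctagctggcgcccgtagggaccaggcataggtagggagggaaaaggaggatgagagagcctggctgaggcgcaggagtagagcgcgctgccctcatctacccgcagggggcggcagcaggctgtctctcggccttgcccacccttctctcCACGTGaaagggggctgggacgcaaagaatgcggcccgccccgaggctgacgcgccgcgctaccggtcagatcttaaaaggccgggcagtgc
CACGTG reads the same on both strands, and 6.42% of the 33469 rat promoters of the same length hold it. No CACGTG was found in the second Nr1d1 window (chr10:84231763-84232062) or in those of Cebpb and Lyve1. Motifs named CRE, D-box, and ROR and REV-ERB half-site were searched too, without a match in any of these windows. The Lyve1 window (chr1:174410928-174411227, minus strand) holds AGAACA, the core hexamer of glucocorticoid receptor sites, on the opposite strand at 50 bases before the start, as do 20.7% of all promoters on either strand. Such matches describe letters in the window and not sites in use in this muscle.

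Pfkfb3 encodes an enzyme that makes fructose 2,6-bisphosphate, the activator of glycolysis. Its signals were 331.2 in the control and 315.8, 208.7, 117.5 and 97.9 at 5%, 10%, 20% and 30% CR, so every step in restriction brought a lower value. The slope was −0.65 ± 0.06 (adjusted p = 0.0207), with all 4 restricted arrays below the control. A second, dimmer probe set of the gene gave signals of 160.8, 147, 107.1, 79 and 56.3 in the same order, and a slope of −0.52 (adjusted p = 0.0207). The isoenzyme genes Pfkfb1 and Pfkfb4 had slopes of 0.14 and 0.18, neither of which passed.

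Nr1d1 encodes REV-ERBα, a heme-binding repressor of Bmal1. Its signals were 233 in the control, 278.3 at 5%, 231 at 10%, 98.7 at 20% and 57.7 at 30% CR. The control and both mild levels lay together, and both higher levels lay far below them. The slope was −0.77 ± 0.09 (adjusted p = 0.0332). A step between 10% and 20% described the 5 values about as well as a line did, with 0.91 and 0.90 of their variance.

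Lyve1 marks lymphatic endothelium and a class of tissue macrophages. Its signals were 130.8, 165.7, 190, 234.8 and 350.9 from control to 30% CR, higher at every step. The slope was 0.44 ± 0.05 (adjusted p = 0.0207), and a dimmer probe set had a slope of 0.32 (adjusted p = 0.124). Cebpb, a factor of the glucocorticoid and inflammatory responses, gave signals of 671.7, 750.9, 763.4, 1052.9 and 1430.2. Its slope was 0.37 ± 0.04 (adjusted p = 0.0246), and most of the rise lay above 10% CR. The sixth probe set has no gene name in the annotation used here. It gave 46.2, 48.6, 60.1, 83.5 and 157.8, with a slope of 0.59 (adjusted p = 0.0332).

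**Figure D1:**
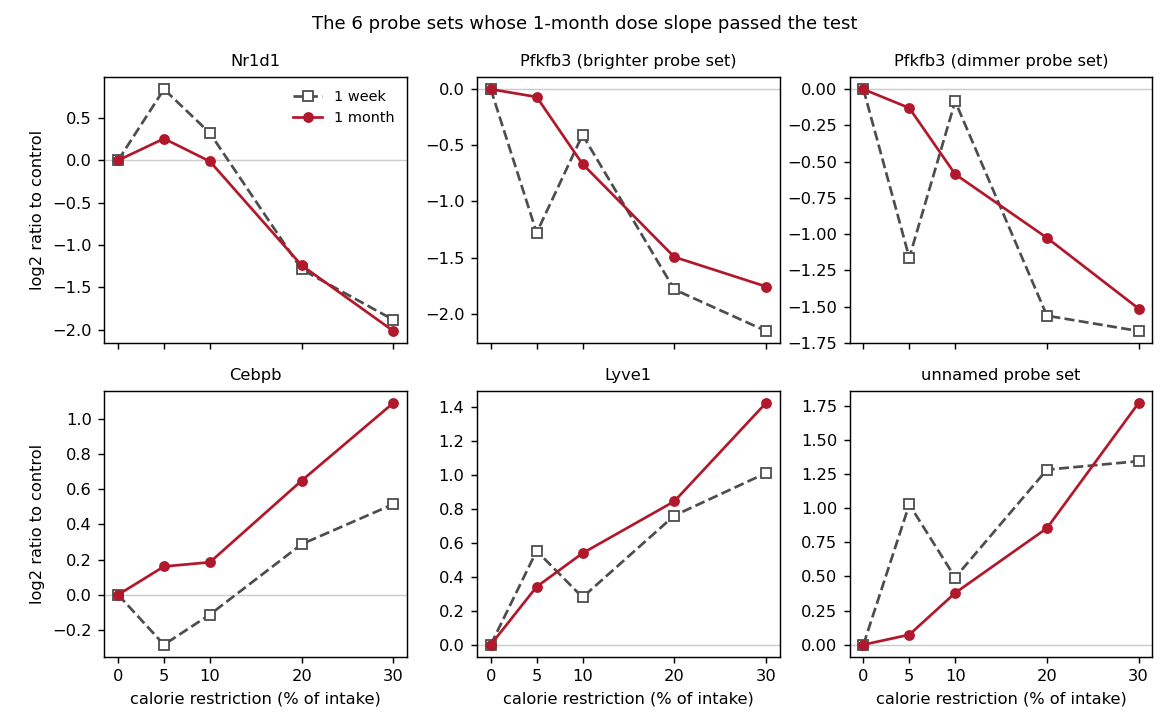
Log2 ratio of each restricted array to its own control (y axis, log2 units) against the level of restriction in percent (x axis) for the 6 probe sets with an adjusted p under 0.05 at 1 month; red circles are 1-month arrays and grey squares 1-week arrays, 1 array per point. At 30% CR after 1 month Nr1d1 lay at −2.01 and Lyve1 at 1.42 relative to control.

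All 6 probe sets, 2 of them of Pfkfb3, had the same sign at 1 week, in arrays that the 1-month slope did not use. So had 58.4% of all tested probe sets, and 71% and 78.5% of the 200 most positive and 200 most negative slopes. For the 1-week control and the 1-week 5% CR array, a line of the description gives the other's feeding, against the titles, so values at 1 week carry that doubt. There the ratios to control of Nr1d1 were 0.84, 0.32, −1.29 and −1.88, and its slope was −0.84 (adjusted p = 0.0291). Pfkfb3 had ratios of −1.28, −0.41, −1.78 and −2.15 at 1 week and a slope of −0.65 (adjusted p = 0.049). The 1-week slopes of Lyve1 (0.30) and Cebpb (0.23) had the same sign but adjusted p of 0.0751 and 0.0891. In the 1-week fit as a whole 54 probe sets rose (0.348%) and 55 fell (0.354%).

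The number of calls at 1 month changed with the arrays in the fit. Leaving out an array also changes the spread of levels and the residual degrees of freedom. The part of each array's own values in these counts was not tested. In limma no probe set passed without the 20% array or without the 30% array (1097 and 805 at an unadjusted p under 0.05), 5 passed without the 10% array, 18 without the 5% array and 51 without the control. The sign of all 6 slopes was the same with each array left out, and with the variance trend switched off no probe set passed, although 1321 had an unadjusted p under 0.05.

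Genes with steep slopes that did not pass came next, and are given as values. Among those with positive slopes, Angptl4, a PPAR target that inhibits lipoprotein lipase, had signals of 85.8, 104, 74.8, 138.4 and 270.2 and a slope of 0.54. Il6r, the interleukin-6 receptor, went from 35.2 through 61.9, 82.6 and 86.3 to 118 (slope 0.49). Gpnmb, a glycoprotein of macrophages and other cells rich in lysosomes, went from 30.1 to 114.1 (slope 0.53). Fgfrl1, a receptor-like protein without a kinase domain, lay at 12.4 and 12.2 in the control and at 5%, and at 29.8 to 39.4 above them (slope 0.57). Os9, C1qtnf1, Mnda, Rnaseh1, C1qc, Golm1, Alkbh4, Ecrg4 and Abhd12 complete the 15 genes named in this direction, with slopes of 0.46 to 0.77.

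The steepest negative slope was that of Nr4a3, an orphan nuclear receptor induced by contraction. It gave 134.3 in the control, 24.4, 18.3 and 24.5 at 5%, 10% and 20%, and 5.7 at 30% CR, with a slope of −1.14 ± 0.26 (adjusted p = 0.203). Most of its distance lay between the control and the first restricted level. Bok, of the BCL2 family, gave 41.5, 34.8, 29.8, 35.9 and 2.9, so a single array set its slope of −1.09, and its other probe set had a slope of 0.03. Pde8a, Trip6, Inf2, Asb1, Lrrc37a, Mavs, Atp1b4, Pakap, Tbl2, Cdon and Sipa1l1 were also among the 15 named in this direction, and most were dim.

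Steep slopes were in the main a feature of dim probe sets. Of the 200 largest positive slopes 156 belonged to probe sets below the median signal of all tested, and the same number held for the 200 largest negative slopes. Their median signals were 32.4 and 32.6, against 86.4 over all tested. The last probe set inside the 200 had a slope of 0.29 upwards and −0.29 downwards, and the first outside differed only beyond the second decimal. At 1 week 71% of the positive and 78.5% of the negative set had the same sign, against 58.4% of all tested probe sets. The Pearson correlation of the slopes of both durations was 0.274 across probe sets (Spearman 0.231), as a description over 15521 probe sets measured on the same platform.

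The shape of each curve was classed by where its change lay. With R the range of the 5 log2 values, a curve was biphasic if it went back by at least 0.5 R, a step if 1 increment held at least 0.6 R, graded if it went back by less than 0.25 R, and otherwise uneven. Of the 200 most positive slopes 72 were graded, 48 stepped between control and 5%, 10 between 5% and 10%, 26 between 10% and 20% and 10 between 20% and 30%, while 10 were uneven and 24 biphasic. Of the 200 most negative slopes 69 were graded and 31, 9, 15 and 44 stepped at those intervals, while 13 were uneven and 19 biphasic. Falls that came at the last level thus numbered 44 (22%) and rises that did 10 (5%), against 6.57% of all tested in either direction. Each such step rests on the 30% array alone, and most of both steep sets were dim. Over all tested probe sets 60.8% were biphasic and 7.16% graded. The large slopes that chose these sets leave less room for biphasic curves, so the shares are descriptions.

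**Figure D2:**
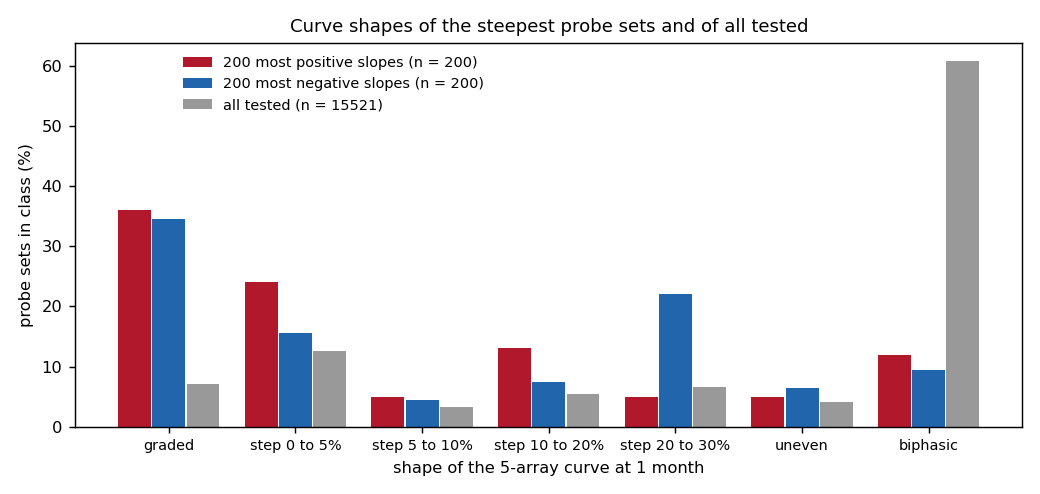
Share of probe sets (y axis, percent) in each class of curve shape (x axis) for the 200 most positive slopes (red), the 200 most negative slopes (blue) and all 15521 tested (grey). Graded curves make up 36% and 34.5% of the steep sets. Steps between 20% and 30% CR are 5% of the positive set, 22% of the negative set and 6.57% of all tested.

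Genes of each shape can be read by their signals. Steps at the mildest level included Nmrk2, a muscle kinase of NAD synthesis, with 1273.4 in the control and 305.2 to 404.6 under restriction. Slc41a3, a magnesium transporter, gave 481.5 against 144.7 to 212.3. G0s2, an inhibitor of fat breakdown, gave 1055.2 against 104.7 to 236.9, and was lowest at 10% rather than 30% CR. For these genes the restricted arrays lay on 1 side of the single control array, which the rule for this class requires. Such steps were 12.5% of all tested probe sets. The slopes of these genes did not pass (adjusted p = 0.254 to 0.697), as a single early step departs from a straight line.

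Steps at the last level included Ucp3, the muscle uncoupling protein, whose steeper probe set gave 540.6, 600.6, 553.2 and 645.1 up to 20% CR and 1288.6 at 30%. Arrdc3, an arrestin-like regulator of receptors, gave 154.4 to 194.7 up to 20% and 393.8 at 30%. The metallothionein Mt2A gave 122.8 to 161.9 and then 292.9. All 3 stayed within a narrow band up to 20% CR. Steps between 10% and 20% included Ecrg4, a secreted peptide precursor, with 59.7 to 67.1 at or below 10% and 170.9 and 132.1 above it.

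The number of 2-fold differences was also read level by level. Against the control, 355 probe sets differed 2-fold at 5% CR (2.29%), 421 at 10% (2.71%), 367 at 20% (2.36%) and 434 at 30% (2.8%). These share 1 control array. Between neighbouring levels 141 differed from 5% to 10% (0.908%), 236 from 10% to 20% (1.52%) and 208 from 20% to 30% (1.34%). Among the 7761 brighter probe sets, a filter added after the data were seen, the counts against the control were 53, 63, 64 and 103, and those between neighbours were 1, 11 and 12. In these brighter probe sets the arrays at 5% and 10% CR therefore differed 2-fold in 1 probe set, and from the control in 53 and 63. The single control array stood apart in its brightest signals and hybridization spikes, as given above. The part of that array difference in these counts was not tested.

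Clock genes took 3 shapes, none of them particular to the clock. Over all tested probe sets 60.8% were biphasic, 12.5% stepped between control and 5%, and 7.16% were graded. In a first set most of the move lay between the control and 5% CR. Per2, a clock repressor, gave 42 in the control and 198, 227.2, 221.8 and 191.4 at 5%, 10%, 20% and 30% CR. Bmal1, the activator of the loop, gave 133.4 and then 22, 32.1, 32.1 and 47.5. Bmal1 thus came partly back towards the control at 30%, as did Cry1. The repressors Cry1 and Cry2, the D-box factor Tef and the receptor Rora also stepped between control and 5%. The rule for this class places all 4 restricted arrays on 1 side of the control, as for each of these 6 genes. None of their slopes passed (adjusted p = 0.574 to 0.878).

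A second set moved at the mild levels and came back at 30%. Dbp, a clock output factor, gave 58.6 in the control, 283, 300 and 239.4 at 5% to 20%, and 109.4 at 30% CR. Its opponent Nfil3 gave 240.9, then 70, 74.6 and 86.7, and 177.3 at 30%. Bhlhe41, a DEC repressor, gave 506.4, then 915.9, 1103.6 and 775.2, and 495.6 at 30%. In each of these the 30% array lay nearer to the control than the other restricted arrays did, and so it did for the next pair. Nr1d2, the paralog of Nr1d1, gave 537.3, then 1001.3, 1016.8 and 945.5, and 682.2 at 30%. Per1 went from 50.2 to 91.5 at 10% and 56.4 at 30%, while Per3 and Hlf were classed biphasic without this pattern.

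At 1 week Dbp, Nfil3 and Nr1d2 were about as far from their control at 30% as at the milder levels, or farther, whereas Bhlhe41 came down at 30% at both durations. Dbp had log2 ratios to control of 1.97 at 30% after 1 week and 0.90 after 1 month, and Nfil3 had −1.69 and −0.44. Those of Nr1d2 were 0.75 and 0.34. Bhlhe41 went from 0.60 at 20% to 0.30 at 30% after 1 week, and lay at −0.03 at 30% after 1 month. No test of a difference in curve shape was made, and the test of dose by duration did not pass for these 4 genes (adjusted p = 0.875 to 0.971).

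The remaining clock genes were graded. Beside Nr1d1 these were Clock and Bhlhe40, the other DEC repressor, with 369.9, 407, 362.1, 286.6 and 172.2 and a slope of −0.39 ± 0.06 (adjusted p = 0.115). Clock, the partner of BMAL1, gave 323.2, 219.6, 235.1, 162.5 and 164.6 (slope −0.30). Of the 16 clock genes tested 1 fell and 15 did not pass. Under quantile normalization and with 32 added to each signal all 16 kept their class. With a step set at 0.5 of the range, Nr1d1, Bhlhe40 and Clock were classed as steps, and with one set at 0.7 Cry2 was classed as uneven.

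**Figure D3:**
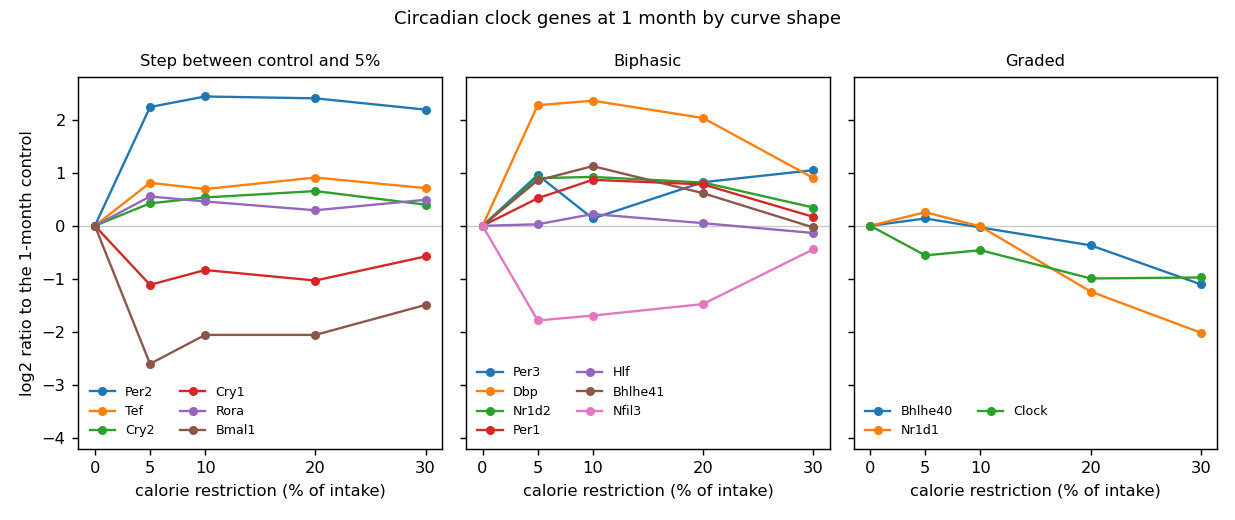
Log2 ratio to the 1-month control array (y axis) against the level of restriction in percent (x axis) for the 16 clock genes tested, in 3 panels by curve shape, 1 array per point. Per2 stays between 2.19 and 2.44 at every restricted level, Dbp drops from 2.03 at 20% to 0.90 at 30%, and Nr1d1 reaches −2.01.

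Without the control array the slope over the 4 restricted arrays passed for 33 probe sets upwards (0.213%) and 18 downwards (0.116%). All 6 probe sets of the full series were among them. Ratios to control were of opposite sign at 5% and 30% CR in 29 of the 51, which a steep slope between these levels favours. The share over all tested probe sets was not taken. Clock genes among them were Nr1d1 (−0.95), Dbp (−0.55), Bhlhe40 (−0.49) and Bhlhe41 (−0.40) downwards and Nfil3 (0.52) upwards. Irs1, the insulin receptor substrate, had signals of 168, 124.1, 113.5 and 65.9 at the 4 levels and fell (−0.49, adjusted p = 0.0231), but its slope with the control at 134.5 did not pass. Ddit4, an inhibitor of mTORC1 induced by glucocorticoids, rose from 226 through 296.8 and 447.3 to 529 (0.49, adjusted p = 0.0036), against 268.9 in the control. The atrophy ligase Trim63 rose from 993.7 through 1194.5 and 1280.2 to 1696.5 (0.28, adjusted p = 0.0192), against 1090.5 in the control. Of the 51, 37 had a slope of the same sign over the 4 restricted 1-week arrays (72.5%, against 48.4% of all tested). Counted in either direction, 7 of the 51 passed in that 1-week fit, where 51 of all tested probe sets passed. Of these 7, Tubb4a alone had opposite signs, with slopes of 0.57 at 1 month and −0.86 at 1 week. The genes in this paragraph were picked after their values were seen.

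Glucocorticoid responsive genes lay higher with restriction as a group. All 16 tested members had positive slopes, with a median of 0.19 against 0.01 over all genes. None passed the adjusted threshold, and 10 had a positive slope and 0 a negative one at an unadjusted p under 0.05, where 5.1% of all genes were positive and 4.07% negative. Fkbp5, a chaperone that restrains the glucocorticoid receptor, gave 269.2, 425.8, 447.9, 506.2 and 697.7 (slope 0.38 ± 0.06, adjusted p = 0.101), and a second probe set had a slope of 0.37. The curves of Klf15 (246.9 in the control, 363.4 to 496.1 under restriction) and of the glutamine synthetase gene Glul (2037.2, then 2993.9 to 3708) stepped at 5%. The median slope of the list was 0.16 to 0.20 with each array left out, with 14 of 16 positive without the control, and 0.24 at 1 week.

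**Figure D4:**
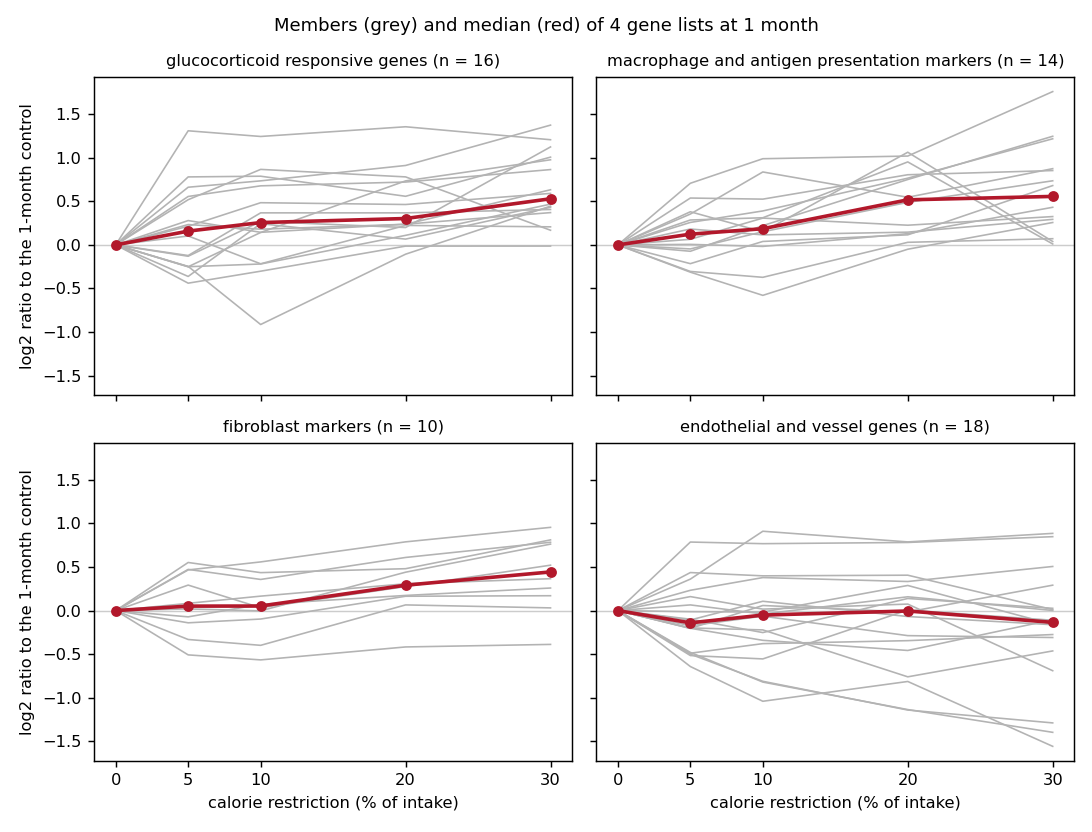
Log2 ratio to the 1-month control array (y axis) against the level of restriction in percent (x axis) for members of 4 gene lists (grey lines, 1 gene each, 1 array per level) with the list median in red. The glucocorticoid median climbs to 0.53 and the macrophage median to 0.56 at 30% CR, and the endothelial median lies at −0.14 there.

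Macrophage and antigen presentation markers showed the same direction in 14 of 14 tested members, with a median slope of 0.19. Without the control array 12 of 14 were positive, with 12 without the 20% array and 13 without the 30% array. None of the 14 passed the adjusted threshold, and 7 had an unadjusted p under 0.05, all positive, where 5.1% of all genes were positive. The 3 chains of complement C1q, which tissue macrophages secrete, were the steepest. C1qa gave 72.6, 86.8, 95.1, 123.4 and 168.8 (slope 0.39 ± 0.05, adjusted p = 0.0542). C1qb gave 46.5, 44.2, 54.2, 78.2 and 110.3, and C1qc gave 37.8, 61.7, 75, 76.6 and 127.9. Both C1qa and C1qc were higher at every level than at the one before. The summed signal of the 14 markers was 1268, 1287, 1369, 1549 and 1937 from control to 30% CR. Mrc1, the mannose receptor, and Lyz2, lysozyme, had slopes of 0.27 and 0.24. The pan-leukocyte gene Ptprc and the macrophage genes Cd68, Aif1 and Tyrobp lay at mean signals of 18.3 to 20.0, near the lower limit of the test. In pooled whole-muscle RNA more cells of a type and more RNA per cell cannot be told apart.

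At 1 week the macrophage list had a median slope of 0.01, with 7 of 14 members positive. C1qa had a slope of −0.01 there, a difference of 0.41 ± 0.09 between durations. The 1-week slopes of C1qb and C1qc were 0.16 and 0.27, with smaller differences of 0.30 and 0.22. No probe set passed the test of dose by duration (0%, smallest adjusted p = 0.562). At an unadjusted p under 0.05 there were 940. Other genes with the smallest p in that test were Asb5, Fcgr1a, Acsl6, Trip6 and Nnt, but the brighter probe set of Asb5 had an unadjusted p of 0.112. Trip6, a focal adhesion protein, had slopes of −0.79 at 1 month and −0.01 at 1 week, and Acsl6, an acyl-CoA synthetase, −0.12 and 0.16. None of these differences passed.

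Fibroblast markers and collagens had members with positive slopes too. Of 10 fibroblast markers 9 had positive slopes, with a median of 0.13. Of these 7 had an unadjusted p under 0.05, where 5.1% of all genes were positive and 4.07% negative. None passed the adjusted threshold. Mfap5, a microfibril protein, gave 260, 359.2, 382.8, 449 and 503.9, and Pi16, a marker of adventitial fibroblasts, gave 45.4, 46, 45.3, 61.6 and 77. Col1a1, the main collagen of tendon and fascia, gave 1254.6, 1258.2 and 1517.5 up to 10% and 2177.9 and 2112.5 above it. Col1a2 had the same shape, with 1038.7 to 1141.2 and then 2108.9 and 1730.1. The 23 collagen and matrix genes were split, with 6 positive and 4 negative at an unadjusted p under 0.05. The vessel collagens Col4a1 (−0.13) and Col15a1 (−0.25) were among the negative. The part of fibroblasts or macrophages in these values was not tested.

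Endothelial genes held steep negative slopes in few members. Kdr, the VEGF receptor of capillaries, gave 167.2, 119.9, 94.7, 76.1 and 63.5 (slope −0.44 ± 0.07, adjusted p = 0.0974). Tmem100, an endothelial target of BMP signalling, gave 274.1, 193.8, 156.2, 124.3 and 112.2 (slope −0.40, adjusted p = 0.101). Each was lower at every level than at the one before. Of 18 members 3 were negative and 0 positive at an unadjusted p under 0.05, Apln, a vessel peptide, being the last of them. The shares over all genes were 4.07% and 5.1%, and the list median was −0.03.

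Fasting fuel genes were mostly positive, 13 of 15, with 5 positive and 1 negative at an unadjusted p under 0.05. Among all genes 5.1% were positive and 4.07% negative at that level. Pdk4, a kinase that inhibits pyruvate dehydrogenase, gave 2956.2, 3274.7, 3566.8, 3882.2 and 5077.3 (slope 0.24 ± 0.04, adjusted p = 0.124). Plin2, the lipid droplet coat protein, was the negative one, with 593.7 and then 402.7, 396.8, 378.1 and 353.1. Of 21 FOXO, autophagy and atrophy genes 5 were positive at an unadjusted p under 0.05, among them Trim63 (0.23), the lysosomal protease Ctsl (0.27) and the atrophy ligase Fbxo32 (0.16). Genes of the respiratory chain (26 tested) and of fast fibres (18 tested) had none at that level. Without the control array the median slope of the respiratory chain was 0.08 instead of 0.00, and that of the fast fibre list 0.11 with 16 of 18 positive instead of −0.02 with 4 of 18. Of the 19 genes of glucose uptake and glycolysis, Pfkfb3 fell and 18 did not pass, with 9 of 19 positive, or 16 of 19 without the control.

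Xenobiotic and antioxidant enzymes had positive slopes in 23 of 25 members, 6 of them at an unadjusted p under 0.05 against 1 negative. Over all genes the shares at that p were 5.1% and 4.07%. The median was 0.12, and 0.07 with 18 of 25 positive without the control array. Gsta1, a glutathione transferase, was graded at 152.2, 231.8, 244.9, 338.3 and 390.3 (slope 0.42 ± 0.06, adjusted p = 0.071). Sult1a1, a sulfotransferase, stepped at 5%, from 133.6 to 362.8, with 343.3, 369.3 and 490.1 above it. Gpx3, a secreted glutathione peroxidase, gave 581.4, 583.1, 599.6, 715.1 and 832 (slope 0.18), with a 1-week slope of −0.03. Members of this list thus differed in shape, with steps at the mildest level beside graded curves.

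Adipocyte markers were positive in 7 of 7 tested members, with a median slope of 0.12 and 2 at an unadjusted p under 0.05. At that p 5.1% of all genes were positive and 4.07% negative. Cfd, the adipokine adipsin, gave 51.4, 85.3, 82.7, 99.3 and 156.6 (slope 0.45, adjusted p = 0.121). The slow fibre list had a median slope of 0.06 at 1 month (0.14 without the control array) and 0.53 at 1 week. Myh7, the slow myosin heavy chain, gave 1422.9, 1399.9, 1239.5, 2210.6 and 1814.3 at 1 month, below the control at 5% and 10% and above it at 20% and 30%. Nerve and Schwann cell markers (4 tested, median 0.14), smooth muscle and pericyte markers (10 tested, median 0.03) and erythrocyte markers (2 tested, median −0.10) had 1, 0 and 0 members at an unadjusted p under 0.05. Without the control array the nerve median was 0.05 and the erythrocyte median −0.01.

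**Figure D5:**
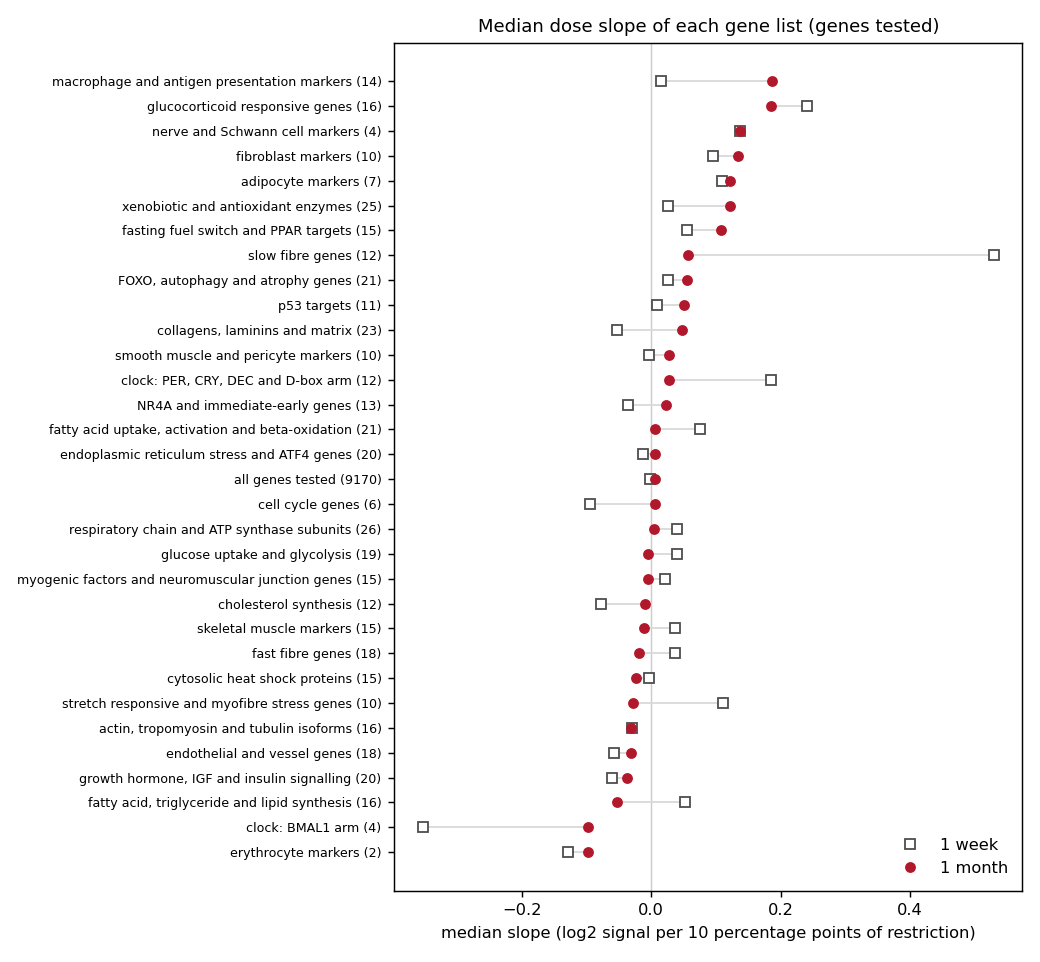
Median slope (x axis, log2 signal per 10 percentage points of restriction) of each of 31 gene lists and of all genes tested (y axis, number of genes in brackets); red circles are 1 month and open squares 1 week. Macrophage markers (0.19) and glucocorticoid responsive genes (0.19) have the largest medians at 1 month, and slow fibre genes the largest at 1 week (0.53). The 1-month medians include the control array, without which several lists move.

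Other lists had few members with slopes at an unadjusted p under 0.05, where 5.1% of all genes were positive and 4.07% negative. A count of 1 positive of 20 or of 16 is near that share. Growth hormone, IGF and insulin signalling had 1 positive and 3 negative of 20, with Irs1 at −0.37 and the adaptor Grb10 at −0.17. Fatty acid, triglyceride and lipid synthesis had 1 positive and 2 negative of 16. Srebf1, the factor that drives lipid synthesis, stepped at 5% from 798.8 to 346.1 and stayed at 294.2 to 344.3. In the endoplasmic reticulum stress list Herpud1, a degradation factor of that compartment, gave 544, 820.1, 986.9, 1021.6 and 1276 (slope 0.34). Phlda3, a p53 target that inhibits AKT, gave 234.8, 424.3, 446.6, 508.6 and 617 (slope 0.38). Both were higher at every level than at the one before, and neither passed (adjusted p = 0.133 and 0.166).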

How the data were processed

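RNA from the gastrocnemius of the 5 rats of a group was pooled on 1 array (Affymetrix Rat Genome 230 2.0). The authors deposited linear signal intensity values from MAS5, each array scaled to a common level within its duration, without detection calls. Values were taken to log2 after a floor of 0.1. Control probe sets and those under the 50th percentile of mean log2 signal over the 10 arrays were left out.

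Slopes on the 5 1-month arrays came from limma 3.58.1 (lmFit and eBayes with a variance trend, R 4.3.3), with Benjamini-Hochberg adjusted p-values over all 15521 probe sets and a threshold of 0.05. The same fit was made on the 1-week arrays, and the difference of slopes was tested over 10 arrays (6 residual degrees of freedom). For each listed gene the brightest of its tested probe sets was used. Of 31099 probe sets 20832 had 1 gene name, 436 had several and 9831 had none. Promoters and gene names came from RefSeq (GRCr8).

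Named genes were the 15 with the largest slopes each way (those that passed, then those at an unadjusted p under 0.05), the 4 steepest of each shape and direction, the 3 with the smallest p each way for dose by duration, up to 4 members per list that passed (otherwise the 2 of lowest p), and all clock genes; further members of these lists were named after their values were seen. The arrays, gene lists and comparisons were chosen with earlier results of these data known. Scripts were tested on simulated data. Alternatives were other scalings, filters, dose scales and variance models, 32 added to each signal, and leaving out each array. The number of arrays limits the precision.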

Additional observations from a re-analysis of the deposited data

How the results depend on the processing

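No paired analysis was possible because each group has 1 array. The number of probe sets that passed at 1 month was 6, and it stayed at 5 or 6 with quantile normalization, median centring, cyclic loess and the other filters, and was 9 with 32 added. It was 0 without the variance trend, 14 with the rank of the level (3 shared with the 6) and 21 in the 10-array fit (3 shared). Leaving out 1 array gave 0 to 51. Lyve1 did not pass with median centring (adjusted p = 0.0523), Cebpb (0.0525) and Nr1d1 (0.0783) did not with the rank of the level, and Nr1d1 (0.0556) and both Pfkfb3 probe sets (0.0535 for the brighter, 0.163 for the dimmer) did not in the 10-array fit. Listed genes that passed numbered 2, and 4 with 32 added. At 1 week the count of 109 was 58 with no filter, 0 without the variance trend, 5 with the 1-week control and 5% arrays exchanged, and 11 to 186 with 1 array left out. For dose by duration it was 0, and 0 to 2 with 1 array left out. The cause of these shifts was not tested.

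Among the 400 steepest probe sets 35.2% were graded, 48.2% stepped, 5.75% uneven and 10.8% biphasic. With a step set at 0.5 of the range the first 3 were 19%, 69% and 1.25%, and at 0.7 they were 49%, 30.8% and 9.5%, as the thresholds require. With 400 probe sets each way 29.4% were graded and 14.5% biphasic, and with 32 added 3.75% were biphasic. At 1.5-fold the counts against the control were 1702, 1781, 1559 and 1866 and those between neighbours 837, 1131 and 1042. With 32 added they were 44, 50, 45 and 87 and 1, 9 and 5, and for the brighter probe sets 53, 63, 64 and 103 and 1, 11 and 12.

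The slope of Nfil3 was 0.03, and −0.0576 with the rank of the level. With 1 array left out some slopes that had not passed changed sign. The ranges were −0.549 to 0.516 for Nfil3, −0.729 to 0.377 for Bmal1, −0.00211 to 0.152 for Ccnd2, −0.12 to 0.0761 for Ckm, −0.387 to 0.161 for Cry1, −0.00479 to 0.294 for Cry2, −0.55 to 0.789 for Dbp and −1.23 to 0.212 for G0s2. They were −0.139 to 0.00858 for Hbb, −0.219 to 0.318 for Nr1d2, −0.163 to 0.362 for Per1, −0.0352 to 0.99 for Per2, −0.0338 to 0.13 for Rora, −0.0424 to 0.156 for Ryr1 and −0.00764 to 0.368 for Tef. They were −0.0285 to 1.2 for Sfrp2, −0.4 to 0.234 for Bhlhe41, −0.00431 to 0.189 for Fcgr1a, −0.0916 to 0.0335 for Hlf, −0.356 to 0.617 for Irx3 and −0.0969 to 0.00698 for Myoz3.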
